A study of Mus musculus with 91 samples.

Results

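The genes described here are the 3 chains of the IL-2 receptor (Il2ra, Il2rb and Il2rg), the kinases bound to them (Jak1 and Jak3) and the transcription factors these kinases phosphorylate (Stat5a and Stat5b). They were taken by symbol, with Ensembl identifiers mapped to mouse symbols, and are 7 of the 20378 genes found in any of 8 deposited tables of RNA-seq read counts. Of those genes, 15554 were in every table. Each of the 7 was present and tested in all 8 tables. RNA was measured in regulatory T cells (Tregs) sorted from the spleen of C57/BL6 mice that carry an RFP-FoxP3 reporter. Mice had received control PBS, mIL-2 (mouse IL-2) or mIL-2/CD25, called FP below, a protein that joins IL-2 to its own receptor chain CD25. Each of the 3 groups (PBS, IL-2 and FP) had 4 libraries at 1.5 h and again at 16 h. The 4 h table had 3 PBS, 4 IL-2 and 3 FP libraries, at 72 h these numbers were 3, 3 and 4, and 168 h had 3 PBS and 4 FP libraries. A separate set held 3 PBS and 3 IL-2 libraries labelled in vitro, 1.5 h, and another 3 PBS and 3 IL-2 libraries labelled high dose, for which the labels give neither dose nor time. In the restimulation table, 3 libraries came from mice given PBS and PBS, 3 from mice given PBS and then a single FP, and 4 from mice given FP and then FP again. The interval between those injections is not in the labels. All samples share 1 treatment text, which gives 20 µg of FP and sorting 1.5 h after injection, and it states no dose of IL-2. Whether replicates came from different mice is not in the labels, and the p-values below take the spread between libraries as their error.

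IL-2 binds a receptor made of CD25 (Il2ra), which raises affinity, CD122 (Il2rb) and the common gamma chain (Il2rg), which is shared with the receptors for IL-4, IL-7, IL-9, IL-15 and IL-21. JAK1 sits on the beta chain and JAK3 on the gamma chain, and together they phosphorylate STAT5A and STAT5B, which enter the nucleus as dimers and bind DNA. Tregs carry CD25 constitutively, depend on IL-2 for survival and FoxP3 expression, and Il2ra is itself a known STAT5 target, as are the feedback inhibitors Cish and Socs2.

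In the build of the files, GRCm38, Il2ra (ENSMUSG00000026770) lies on chromosome 2 from 11642807 to 11693193, plus strand. Il2rb (ENSMUSG00000068227) lies on chromosome 15 from 78479256 to 78495271, minus strand, and Il2rg (ENSMUSG00000031304) on the X chromosome from 101264378 to 101268255, minus strand. Jak1 (ENSMUSG00000028530) spans 101152367 to 101265282 of chromosome 4, minus strand, and Jak3 (ENSMUSG00000031805) 71676296 to 71690575 of chromosome 8, plus strand. Stat5b (ENSMUSG00000020919, 100780731 to 100850724, minus strand) and Stat5a (ENSMUSG00000004043, 100859351 to 100885169, plus strand) are neighbouring paralogs on chromosome 11, and reads from stretches they share could be divided between them. Exons of Il2rg share 728 of 2387 bases with Gm20489 on the same strand, a gene that is in no table. Jak3 shares 404 of 5352 exon bases with Insl3 on the same strand, and Stat5a shares 72 of 7133 with Stat3 on the opposite strand. Whether counting used the strand is not given in the sources used here.

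The 250 bases before the RefSeq start (GRCm38.p6) are shown for Il2ra, a receptor chain that rose after both agents, and for Il2rg, which changed little at the early times, because both windows lie outside the transcripts. Promoter windows of RefSeq were found for 6 of the 7 genes. Il2rb had no entry. Capitals mark the letters GGGANNNNCC, an NF-kB type motif.

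Il2ra, chr2:11642542-11642791, plus strand: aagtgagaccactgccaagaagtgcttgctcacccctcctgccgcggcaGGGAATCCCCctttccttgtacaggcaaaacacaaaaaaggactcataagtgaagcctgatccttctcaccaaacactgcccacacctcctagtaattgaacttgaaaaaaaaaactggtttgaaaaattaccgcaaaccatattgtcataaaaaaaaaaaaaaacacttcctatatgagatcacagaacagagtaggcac

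Il2rg, chrX:101268256-101268505, minus strand: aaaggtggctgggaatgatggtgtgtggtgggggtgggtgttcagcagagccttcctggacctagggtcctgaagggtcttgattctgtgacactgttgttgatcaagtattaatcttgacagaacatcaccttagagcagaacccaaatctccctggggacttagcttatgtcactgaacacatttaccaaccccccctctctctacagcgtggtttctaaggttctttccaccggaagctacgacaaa

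The marked motif in the Il2ra window begins 201 bases before the start, and letters of this form are in 17.6% of all 32851 windows of the same length, both strands searched. GC content was 42.4% in the Il2ra window and 49.2% in the Il2rg window, with 3 CG dinucleotides in each. The STAT letters TTCNNNGAA were in 7.02% of all windows and in none of the 8 windows of these genes, which says only that the letters are not in these windows. TATAAA (12.4% of all windows), GGGCGG (32.7%) and CCAAT (33.8%) were in neither printed window.

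Libraries held between 12.2 and 46.1 M counted reads. Markers of T cells and Tregs (Foxp3, Ikzf2, Ctla4, Tnfrsf18, Cd3e and Cd4, 6 of 6 in every table) summed to between 2565 and 3938 CPM (the reads of a gene relative to all counted reads of its library) in the libraries compared, and the B cell markers to at most 49.4 CPM. Summed myeloid markers at 1.5 h were 198 to 758 CPM in PBS, 171 to 948 after IL-2 and 414 to 607 after FP, groups that overlapped. The myeloid sums were lower after FP than in PBS at 72 h (11.5 to 56.9 against 222 to 549 CPM) and at 168 h (18.7 to 24.3 against 140 to 219 CPM), with no overlap. Levels below are CPM scaled by TMM within a table, and tables were scaled separately. The in vitro libraries stood apart in level from those of injected animals. In the restimulation table, the library labelled single FP, replicate 1, was at the PBS level for Il2ra and for the STAT5 targets Socs2 (35.5 CPM, against 114 and 117 in the other 2 and 35.1 to 41.4 in PBS) and Cish (170 CPM, against 530 and 464 and 140 to 179). Values of Il2ra and Il2rb after the single FP are given with and without it. At 4 h, 2 libraries whose title and injected molecule disagree were left out of the groups. Their column headers name the same agent as their titles. In bulk RNA from a sorted population, fewer cells of a type and less RNA per cell cannot be told apart.

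Before any agent, the order of the genes per kilobase of exon was the same in 6 of the 7 tables of injected animals, and in the high-dose table Il2rg stood before Il2ra. Over their 23 PBS libraries, the median level per kilobase was 167 CPM for Il2rb, 119 for Jak1, 107 for Il2ra, 92.9 for Il2rg, 51.8 for Stat5b, 41.6 for Jak3 and 17.9 for Stat5a. Il2rb, Jak1, Il2ra and Il2rg overlapped in their library ranges (117 to 250.3, 101 to 165, 75.4 to 135 and 80.5 to 131 CPM per kilobase), while Stat5a (15.02 to 23.4) lay below all other genes. Stat5b (43.5 to 69.4) and Jak3 (31.8 to 64.4) overlapped with each other and lay below the 4 higher genes in every library. The in vitro PBS libraries had another order. There Stat5b was first with a median of 138 CPM per kilobase, Stat5a had 101, and Jak3 was last with 16.7. The length used for Il2rg includes the 728 of 2387 bases shared with Gm20489. How reads from shared bases were counted is not given, so the place of Il2rg in these orders is uncertain.

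**Figure D1:**
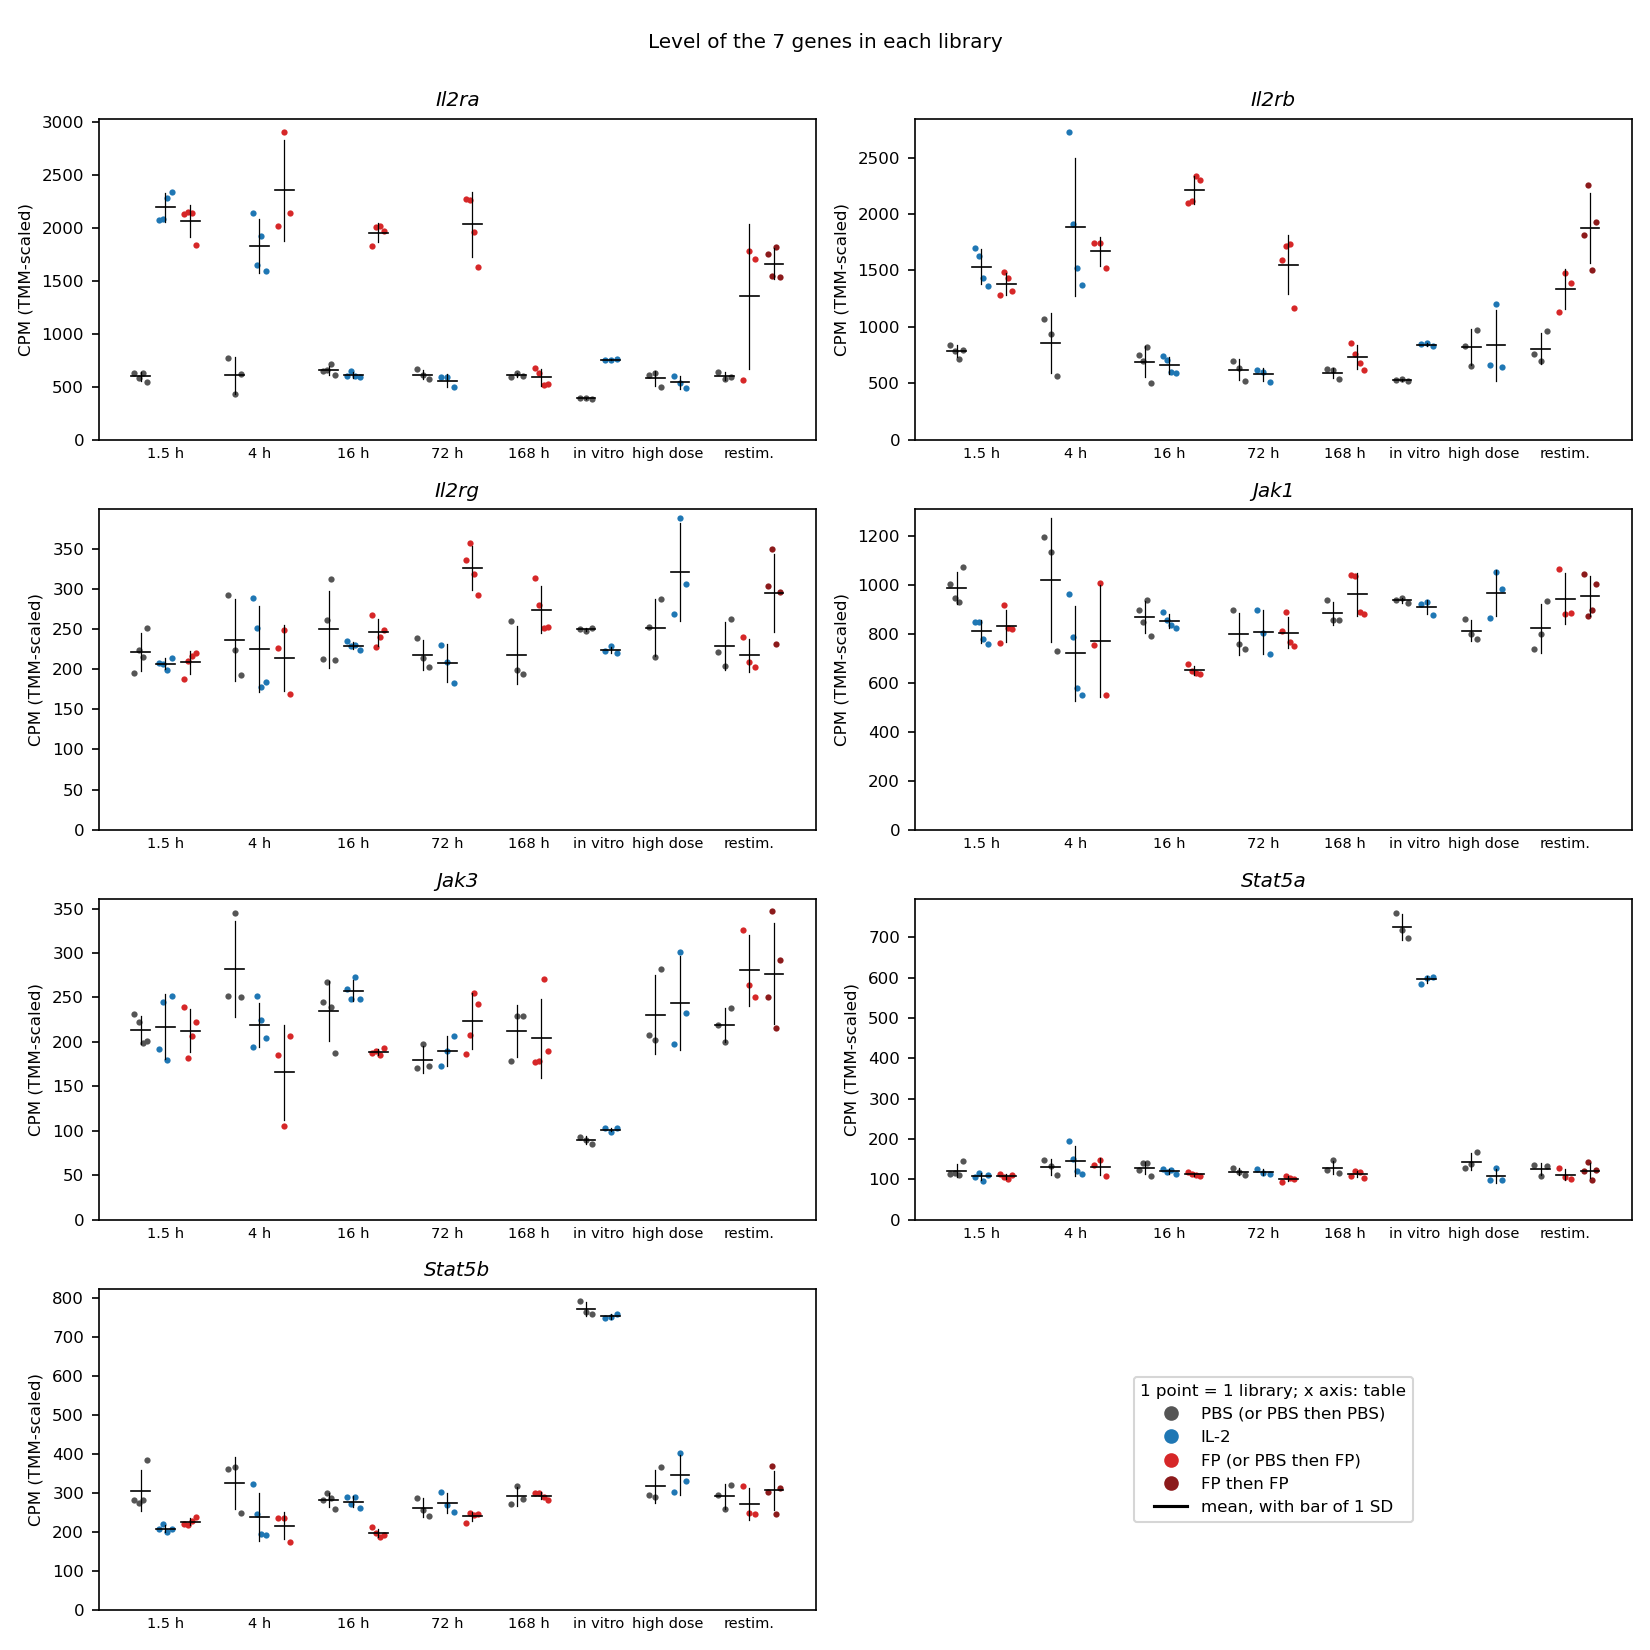
Level of each gene in CPM (vertical axis, from 0) in every library, grouped by table and coloured by agent, with the group mean and a bar of 1 SD. Il2ra has group means of 1955 to 2353 CPM in the FP groups from 1.5 h to 72 h and of 597 to 657 CPM in the PBS groups beside them, and the in vitro libraries have Stat5a levels of 585 to 762 CPM.

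Over the 13 comparisons of a treated group with the PBS group of its own table, Il2ra and Il2rb each passed the test in 6, always higher. Stat5b passed in 3, always lower, and Jak1 in 1, lower. Il2rg and Jak3 each passed in 2, once in each direction, and Stat5a in 1, lower. The test was edgeR's quasi-likelihood F test over all genes of a table, and a gene passed at a Benjamini-Hochberg adjusted p below 0.01.

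After IL-2 for 1.5 h, 3 of the 7 genes passed, where 14.2% of all genes did (8.39% higher, 5.79% lower). After FP for 1.5 h the count was also 3, where 6.67% of all genes passed (4.39% higher, 2.28% lower). In both, Il2ra and Il2rb were higher and Stat5b was lower. At 4 h the count was 0 after IL-2, where 0.652% of all genes passed, although 2 of the 7 had an unadjusted p below 0.05 and DESeq2 called 2. After FP at 4 h it was 1 (0.913% of all genes). With the replicate number as a block the counts at 4 h were 2 after each agent. With a token of the column header, read as a date, as a block they were 2 after IL-2 and 4 after FP. At 16 h it was 5 after FP, where 28.8% of all genes passed (14.4% higher, 14.3% lower), and 0 after IL-2, where 0.35% did, with 0 of 7 at an unadjusted p below 0.05 and 0 by DESeq2. At 72 h it was 3 after FP, all higher, where 30.4% of all genes passed (17.3% higher, 13.1% lower).

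For IL-2 at 72 h the count was 0 with edgeR and 0 with DESeq2, none had an unadjusted p below 0.05, and 0% of all genes passed (82 genes at an unadjusted p below 0.05). At 168 h after FP it was 0 by both tools, and 2 of the 7 had an unadjusted p below 0.05, where 1.21% of all genes passed. In vitro, 5 of the 7 passed, where 13.9% of all genes did (7.4% higher, 6.54% lower). In the high-dose table the count was 0 by edgeR and by DESeq2, with 0 at an unadjusted p below 0.05. Of all genes, 0% passed there with edgeR, where 2743 were below 0.05 before adjustment and DESeq2 called 549. After a single FP in the restimulation table it was 0 by both tools (2 at an unadjusted p below 0.05, and 0.0111% of all genes passed), and after repeated FP it was 1 (0.629% of all genes).

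**Figure D2:**
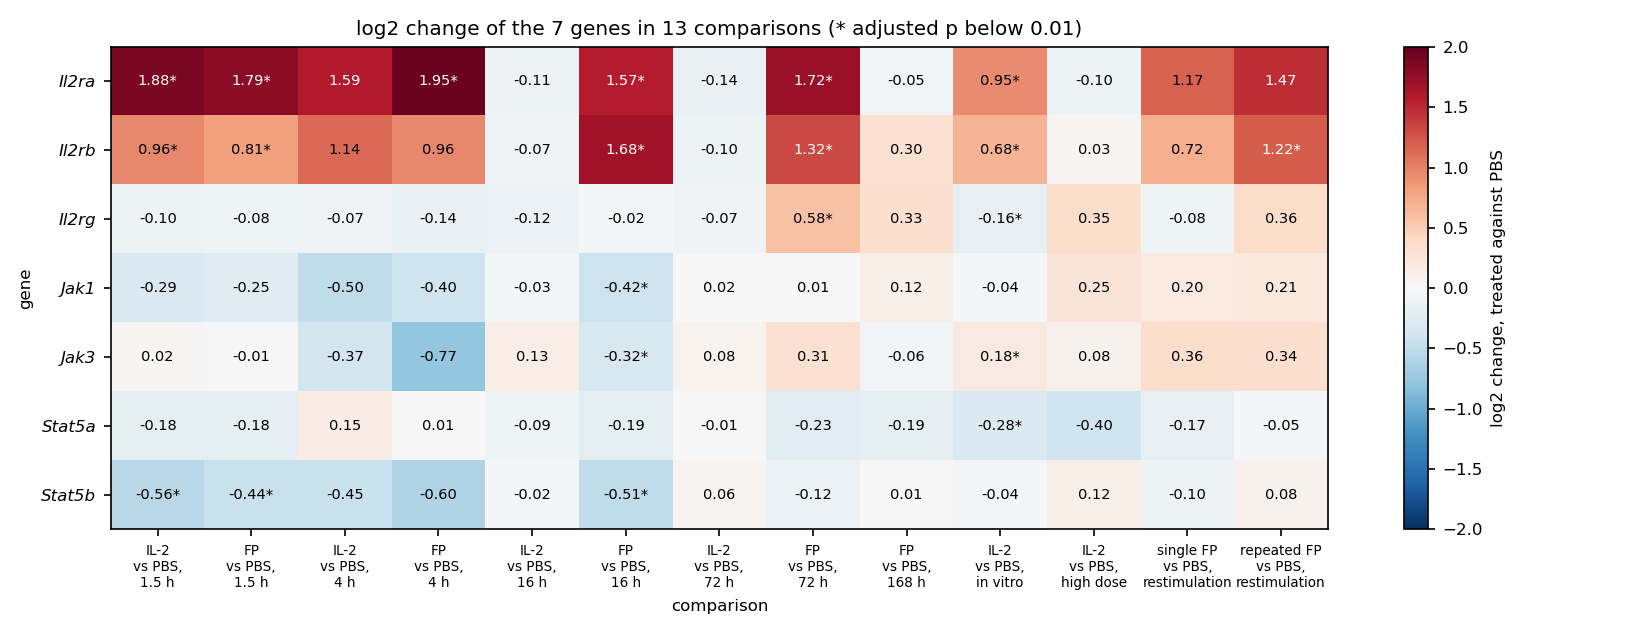
log2 change against PBS (colour) of each gene (rows) in each of 13 comparisons (columns), with an asterisk where the adjusted p was below 0.01. Il2ra and Il2rb carry the higher values at 1.5 h to 72 h after FP and at 1.5 h and 4 h after IL-2. They do so too in vitro and in the restimulation columns. At 4 h after IL-2 neither carries an asterisk. Stat5b is lower after both agents at 1.5 h and after FP at 16 h.

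Il2ra, the chain that gives the receptor high affinity, had 630, 586, 627 and 545 CPM in the 4 PBS libraries at 1.5 h. After IL-2 it had 2072, 2081, 2277 and 2337 CPM, and after FP 2134, 2144, 2140 and 1839 CPM. Every treated library lay above every PBS library. Il2ra rose by 1.88 ± 0.088 (log2 change ± SE, 3.67-fold, adjusted p = 1.7e-08, edgeR) after IL-2 and by 1.79 ± 0.088 (3.46-fold, adjusted p = 3.2e-08) after FP. FP and IL-2 were compared directly at this time, and the log2 difference for Il2ra was -0.09 (95% interval -0.27 to 0.10).

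In the 4 h table Il2ra had 774, 431 and 617 CPM in PBS, 2137, 1645, 1927 and 1596 CPM after IL-2, and 2021, 2900 and 2138 CPM after FP. Again no treated library overlapped with PBS. The log2 difference was 1.59 ± 0.26 after IL-2, with an adjusted p of 0.013 (edgeR), and Il2ra rose by 1.95 ± 0.28 (3.88-fold, adjusted p = 0.0056) after FP. With the replicate number as a block, both passed (adjusted p = 0.0022 for IL-2 and 0.00044 for FP, edgeR). The column headers of this table also carry tokens that were read as dates, although the labels do not say what they are. These header dates in part group the libraries otherwise than the numbers do. FP replicate 2 has the header date of PBS replicate 1. With the header date as a block, chosen after seeing the data, the values were 1.72 (adjusted p = 5.5e-08) for IL-2 and 1.85 (adjusted p = 7.9e-09, edgeR) for FP. With the sequencing lane as a covariate, the FP value was 1.74 with an adjusted p of 0.15 and the IL-2 value was 1.59 with an adjusted p of 0.025 (edgeR), since the 3 FP libraries came from both lanes and all PBS libraries from 1. The FP call at 4 h was lost with each of the 6 FP and PBS libraries left out in turn, with an adjusted p between 0.011 and 0.046 (edgeR).

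At 16 h the 2 agents differed. Il2ra had 646, 656, 715 and 613 CPM in PBS and 605, 647, 602 and 589 CPM after IL-2, groups that overlapped. After FP it had 1828, 2007, 2020 and 1965 CPM, above both. The change after IL-2 was -0.11 (95% interval -0.26 to 0.04) and after FP Il2ra rose by 1.57 ± 0.073 (2.97-fold, adjusted p = 7.3e-11, edgeR). FP was above IL-2 by 1.68 at this time (adjusted p = 7.5e-11, edgeR).

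The same split held at 72 h, with 663, 609 and 573 CPM in PBS, 590, 593 and 493 CPM after IL-2, and 2273, 2265, 1957 and 1630 CPM after FP. Il2ra rose by 1.72 ± 0.13 (3.3-fold, adjusted p = 1.5e-06, edgeR) after FP, and after IL-2 the value was -0.14 (95% interval -0.44 to 0.16). At 168 h the FP libraries, with 675, 633, 517 and 524 CPM, were spread around the PBS libraries, with 596, 631 and 599 CPM. The log2 difference was then -0.05 (95% interval -0.30 to 0.20, adjusted p = 0.87, edgeR).

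Il2rb, the chain that carries signal into the cell, had 839, 787, 717 and 796 CPM in PBS at 1.5 h, 1694, 1631, 1435 and 1365 CPM after IL-2, and 1280, 1485, 1435 and 1317 CPM after FP. All treated libraries were above PBS. Il2rb rose by 0.96 ± 0.092 (1.95-fold, adjusted p = 5.1e-06, edgeR) after IL-2 and by 0.81 ± 0.092 (1.76-fold, adjusted p = 4.6e-05) after FP. The direct log2 difference of FP from IL-2 was -0.15 (95% interval -0.35 to 0.04).

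At 4 h Il2rb had 1073, 935 and 565 CPM in PBS, 2730, 1910, 1524 and 1374 CPM after IL-2, and 1742, 1740 and 1521 CPM after FP. The treated libraries lay above the PBS libraries, which were themselves spread widely. The log2 differences of 1.14 ± 0.30 for IL-2 (adjusted p = 0.09, edgeR) and 0.96 ± 0.32 for FP (adjusted p = 0.13) did not pass. Both passed with the replicate number as a block (1.22, adjusted p = 0.0039, and 1.02, adjusted p = 0.0073, edgeR) and with the header date as a block (1.19, adjusted p = 7.2e-05, and 0.93, adjusted p = 0.00095, edgeR).

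At 16 h after FP, Il2rb reached its highest group level of any time, 2099, 2114, 2332 and 2303 CPM, against 748, 698, 821 and 502 CPM in PBS and 738, 703, 604 and 591 CPM after IL-2. It rose by 1.68 ± 0.12 (3.2-fold, adjusted p = 2.5e-08, edgeR). Per kilobase of exon this group mean was 516 CPM, above that of Il2ra in the same libraries, so the ratio of Il2ra to Il2rb per kilobase was 0.664 ± 0.033 (SD, n = 4), near the 0.731 ± 0.127 of PBS. At 1.5 h the same ratio had gone from 0.573 ± 0.060 in PBS to 1.13 ± 0.088 after FP and 1.09 ± 0.178 after IL-2 (SD, n = 4 each), with no overlap between treated and PBS libraries. No test was made of these ratios.

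At 72 h Il2rb had 700, 638 and 518 CPM in PBS, 621, 601 and 515 CPM after IL-2, and 1588, 1714, 1731 and 1166 CPM after FP. It rose by 1.32 ± 0.15 (2.5-fold, adjusted p = 3.5e-05, edgeR) after FP, while the IL-2 and PBS groups overlapped. At 168 h the PBS libraries had 624, 614 and 539 CPM and the FP libraries 860, 762, 683 and 617 CPM. These groups overlapped in 1 FP library, and the log2 difference of 0.30 (95% interval 0.03 to 0.58) did not pass (adjusted p = 0.29, edgeR).

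Whether the change itself differed between times was tested as a difference of log2 changes in a joint fit of 2 tables. For FP at 16 h against 1.5 h, Il2rb was the 1 of 7 genes that passed, with a difference of 0.89 ± 0.16 (adjusted p = 0.0012, edgeR), where 3.75% of all genes passed. The difference for Il2ra was -0.19 (95% interval -0.43 to 0.04). For FP at 168 h against 72 h, Il2ra (-1.75 ± 0.18, adjusted p = 1.2e-05) and Il2rb (-0.99 ± 0.21, adjusted p = 0.0062) passed, where 6.22% of all genes did. The Il2rb call was near the threshold, and its adjusted p was above 0.01 with 9 of the 14 libraries left out in turn (at most 0.025, edgeR).

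For IL-2 at 16 h against 1.5 h, Il2ra differed by -1.99 ± 0.11 (adjusted p = 2.8e-09, edgeR) and Il2rb by -1.04 ± 0.18 (adjusted p = 0.00037), where 10% of all genes passed. Stat5b had a difference of 0.53 with an adjusted p of 0.011 (edgeR). Without PBS replicate 4 of 1.5 h, in which Stat5b was high, it was 0.39 and passed (adjusted p = 0.0077, edgeR). With all libraries, limma voom called 3 of the 7. For FP at 72 h against 16 h, 0 of 7 passed with edgeR and 0 with limma voom, and 10.9% of all genes passed with edgeR. There 4 of the 7 had an unadjusted p below 0.05, namely Jak3 (0.59), Il2rg (0.57), Stat5b (0.36) and Jak1 (0.40), all with a positive difference. These 2-table fits set libraries of separate tables against each other, and time and table cannot be told apart.

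**Figure D3:**
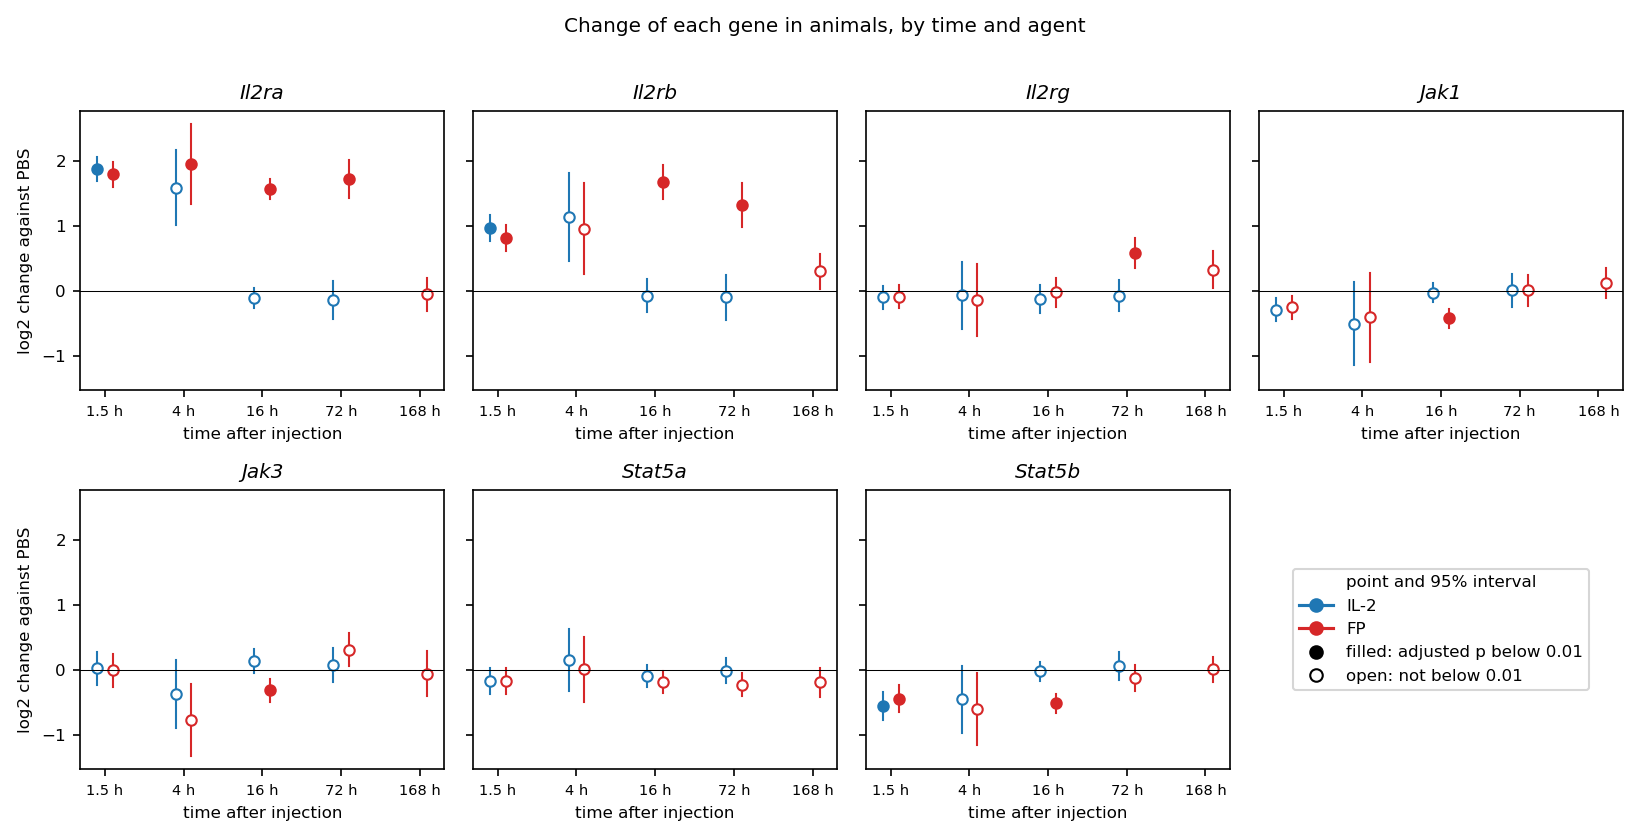
log2 change against PBS with its 95% interval (vertical axis) at each time after IL-2 or FP in animals (horizontal axis, not to scale), 1 panel per gene. The intervals of Il2ra and Il2rb include 0 at 16 h and 72 h after IL-2, that of Il2ra also at 168 h after FP, and Il2rg lies above 0 at 72 h after FP.

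Il2rg, the common gamma chain, was the steadiest receptor chain over the first 16 h. Its group means in animals at 1.5 h, 4 h and 16 h lay between 207 and 249 CPM, with PBS and treated libraries overlapping in each. At 72 h it had 239, 214 and 202 CPM in PBS, 230, 210 and 183 CPM after IL-2, and 336, 358, 319 and 293 CPM after FP. All 4 FP libraries were above all others, and Il2rg rose by 0.58 ± 0.10 (1.5-fold, adjusted p = 0.00079, edgeR). Against IL-2 the FP group was higher by 0.65 (adjusted p = 0.00035, edgeR). At 168 h PBS had 260, 199 and 195 CPM and FP 313, 280, 251 and 252 CPM. The groups overlapped, and the log2 difference of 0.33 (95% interval 0.05 to 0.61) did not pass (adjusted p = 0.25, edgeR).

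FP was also compared directly with IL-2 at each time that held both agents. At 1.5 h and at 4 h, 0 of 7 passed by edgeR or by DESeq2, and none had an unadjusted p below 0.05. Of all genes, 0% passed with edgeR at either time, while 970 genes at 1.5 h and 482 at 4 h were below 0.05 before adjustment, and DESeq2 called 1 and 4 genes. At 16 h 5 of 7 passed (31.8% of all genes) and at 72 h 3 of 7 (30.8% of all genes). The log2 differences of the 7 genes ran from -0.15 to 0.12 at 1.5 h and from -0.40 to 0.37 at 4 h. The 4 h libraries were widely spread, so the count of 0 there does not show that the agents acted alike. Whether the difference between the agents changed with time was not tested. A matched dose of the 2 agents is not stated.

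At 72 h the summed myeloid markers were lower in the FP libraries, as given above, and the summed Treg and T cell markers were higher (3486 to 3808 against 2586 to 3029 CPM in PBS). The summed Treg and T cell markers were also higher than in PBS, without overlap, at 1.5 h (3247 to 3603 CPM after IL-2 and 3097 to 3255 after FP, against 2615 to 2818), at 168 h (3259.8 to 3719 against 2803 to 3238), in vitro (3377 to 3500.4 against 2783 to 2883), in the high-dose table (3142 to 3462 against 2565 to 2628) and after repeated FP (3282 to 3938 against 2949.6 to 3163). At 4 h and 16 h, after IL-2 at 72 h and after the single FP, the sums overlapped with PBS. The marker list holds Foxp3, which itself rose at 1.5 h after IL-2 and in vitro, so these sums do not measure cell content alone. The part of these differences in the changes of the 7 genes was not tested.

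Jak1, the kinase on the beta chain, had 896, 850, 939 and 790 CPM in PBS at 16 h, 890, 856, 837 and 823 CPM after IL-2, and 677, 647, 642 and 638 CPM after FP. All FP libraries were below all others. Jak1 fell by 0.42 ± 0.069 (log2, adjusted p = 0.00013, edgeR) against PBS, and the difference from IL-2 was -0.39 (adjusted p = 0.00024). At 1.5 h the PBS libraries had 1002, 945, 932 and 1072 CPM, the IL-2 libraries 850, 848, 780 and 760 CPM and the FP libraries 763, 918, 824 and 822 CPM. All treated libraries were below PBS, but the log2 differences of -0.29 for IL-2 (adjusted p = 0.019, edgeR) and -0.25 for FP (adjusted p = 0.06) did not pass. DESeq2 gave an adjusted p of 0.0027 for IL-2. At 72 h the group means of Jak1 were 798 CPM in PBS, 807 after IL-2 and 804 after FP, with overlapping libraries, and at 168 h none of Jak1, Jak3, Stat5a and Stat5b passed, with log2 differences from -0.19 to 0.12.

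Jak3, the kinase on the gamma chain, had 245, 267, 240 and 188 CPM in PBS at 16 h, 260, 249, 273 and 248 CPM after IL-2 and 188, 190, 185 and 193 CPM after FP. It fell by 0.32 ± 0.086 (log2, 19.6% lower, adjusted p = 0.0074, edgeR) against PBS, although 1 PBS library overlapped with FP. That call was lost with 7 of the 8 FP and PBS libraries left out in turn (adjusted p up to 0.033, edgeR). Against IL-2 the groups did not overlap, and the difference was -0.45 (adjusted p = 0.00048, edgeR). At 72 h the direction was the other way, with 170, 198 and 173 CPM in PBS and 186, 208, 255 and 243 CPM after FP, groups that overlapped, and the log2 difference of 0.31 did not pass (adjusted p = 0.046, edgeR).

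Stat5b, the more abundant STAT5 gene, had 283, 273, 282 and 384 CPM in PBS at 1.5 h, 207, 219, 199 and 207 CPM after IL-2, and 221, 217, 227 and 237 CPM after FP. All treated libraries were below PBS, in which replicate 4 stood high. Stat5b fell by 0.56 ± 0.099 (32% lower, adjusted p = 0.0009, edgeR) after IL-2 and by 0.44 ± 0.099 (26.2% lower, adjusted p = 0.0087) after FP. Without the high PBS library the values were -0.43 (adjusted p = 0.00028) and -0.31 (adjusted p = 0.0053, edgeR). The FP call at 1.5 h was lost with each of the other 7 FP and PBS libraries left out, with an adjusted p of at most 0.029 (edgeR).

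At 16 h Stat5b had 281, 300.2, 287 and 259 CPM in PBS, 288.5, 271, 289 and 261 CPM after IL-2 and 212, 197, 188 and 193 CPM after FP. The FP group was below both others without overlap. Stat5b fell by 0.51 ± 0.067 (log2, 30.0% lower, adjusted p = 1.2e-05, edgeR). At 4 h it had 362, 366 and 248 CPM in PBS and 236, 235 and 175 CPM after FP, groups that did not overlap, and the log2 difference after FP was -0.60 (adjusted p = 0.24, edgeR), which did not pass. With the header date as a block it was -0.66 (adjusted p = 0.0067, edgeR), and that of Jak3 was -0.72 (adjusted p = 0.006), against -0.77 (adjusted p = 0.13) without a block. With the replicate number as a block neither passed (adjusted p = 0.026 and 0.054, edgeR). Its group means at 72 h were 262 CPM in PBS and 240 CPM after FP, with overlapping libraries.

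Stat5a, the less abundant paralog, had 113, 115, 111 and 146 CPM in PBS at 1.5 h, 105, 116, 96.3 and 112 CPM after IL-2, and 113, 105, 101 and 111 CPM after FP, so the groups overlapped. The log2 difference was -0.18 after each agent (adjusted p = 0.19 for IL-2 and 0.25 for FP, edgeR). At 16 h it was -0.19 after FP (adjusted p = 0.069), and at 72 h -0.23 (adjusted p = 0.041, edgeR), where the 4 FP libraries (94.5, 108, 104 and 101 CPM) lay below the 3 PBS libraries (127, 119 and 111 CPM).

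The ratio of Stat5a to Stat5b per kilobase shows both paralogs within a library. In PBS it was 0.309 ± 0.014 at 1.5 h, 0.316 ± 0.033 at 4 h, 0.352 ± 0.025 at 16 h and 0.354 ± 0.009 at 72 h (SD, n = 4, 3, 4 and 3). At 1.5 h it was 0.400 ± 0.020 after IL-2 and 0.370 ± 0.022 after FP (SD, n = 4). At 4 h it was 0.474 ± 0.008 (SD, n = 4) and 0.476 ± 0.022 (SD, n = 3). No treated library overlapped with PBS at these times. At 16 h the ratio was 0.442 ± 0.010 after FP but 0.337 ± 0.003 after IL-2 (SD, n = 4), and at 72 h it was 0.329 ± 0.010 after FP, below PBS without overlap. Lower values in treated libraries, without overlap, were also found at 168 h, with 0.299 ± 0.017 after FP (SD, n = 4) and 0.343 ± 0.022 in PBS (SD, n = 3), and in vitro, with 0.614 ± 0.006 after IL-2 and 0.729 ± 0.016 in PBS (SD, n = 3 each). In the high-dose table the ratio was 0.245 ± 0.014 after IL-2 and 0.353 ± 0.016 in PBS (SD, n = 3 each), again without overlap. In the restimulation table, also labelled 1.5 h, it was 0.335 ± 0.019 in PBS and 0.321 ± 0.010 after the single FP (SD, n = 3 each), which overlapped, and 0.308 ± 0.006 after the repeated FP (SD, n = 4), below PBS. Treated libraries were thus above PBS after both agents at 1.5 h and 4 h and after FP at 16 h, and in no other comparison. No test of this ratio was made.

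**Figure D4:**
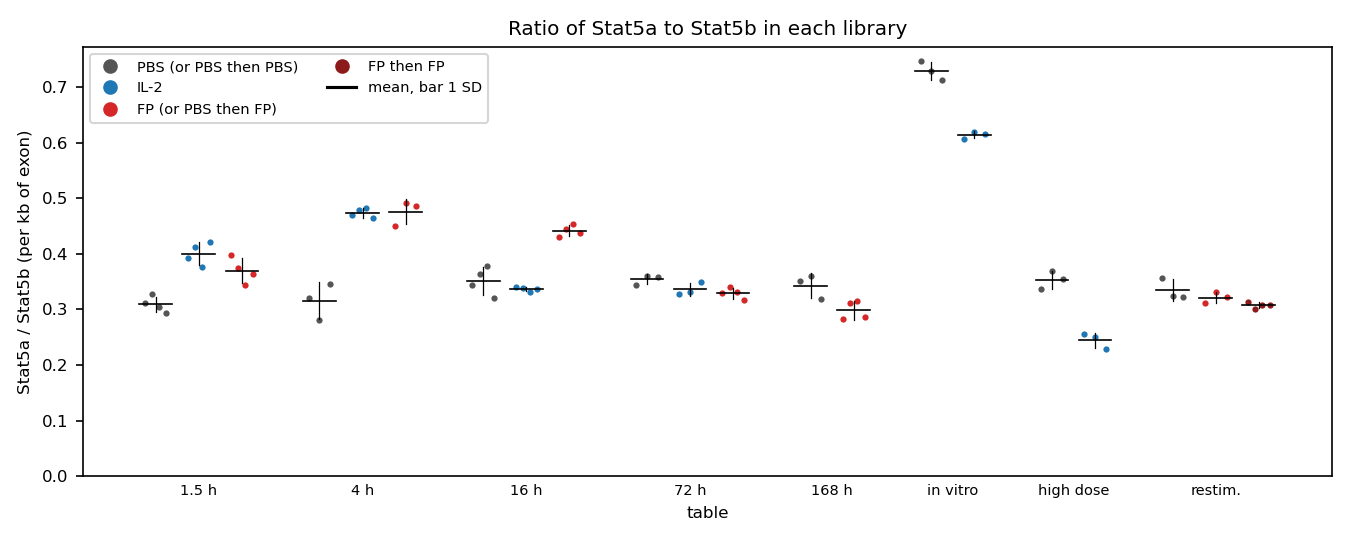
Ratio of Stat5a to Stat5b, each in CPM per kilobase of exon (vertical axis, from 0), in every library by table, coloured by agent, with the group mean and a bar of 1 SD. The treated libraries lie above PBS in the 1.5 h and 4 h tables, and below PBS in vitro (0.607 to 0.620 against 0.713 to 0.746) and after repeated FP (0.300 to 0.314 against 0.323 to 0.357).

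In vitro, IL-2 for 1.5 h moved the same 2 receptor chains in libraries with little spread. Il2ra had 394, 394 and 381 CPM in PBS and 752, 752 and 759 CPM after IL-2, and it rose by 0.95 ± 0.035 (1.93-fold, adjusted p = 6.8e-18, edgeR). Il2rb had 527, 536 and 517 CPM in PBS and 844, 854 and 827 CPM after IL-2, a rise of 0.68 ± 0.035 (1.6-fold, adjusted p = 1.3e-14, edgeR). Neither gene had overlapping groups.

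The other changes in vitro were small. Il2rg fell by 0.16 ± 0.034 (log2, adjusted p = 0.001, edgeR), from 250, 248 and 251 CPM to 223, 228 and 220 CPM. Jak3 rose by 0.18 ± 0.043 (adjusted p = 0.002, edgeR), from 93.6, 89.4 and 84.9 CPM to 103, 99.0 and 103 CPM, a call lost without 3 of the 6 libraries in turn (adjusted p at most 0.017). Stat5a fell by 0.28 ± 0.037 (adjusted p = 9.9e-07, edgeR), from 762, 717 and 698 CPM to 585, 600.5 and 602 CPM. Stat5b, which fell in animals at this time, had 793, 764 and 760 CPM in PBS and 749, 752 and 760 CPM after IL-2 here and did not pass.

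The IL-2 change in vitro was set against that in animals at 1.5 h in a joint fit. The change of Il2ra was smaller in vitro by 0.95 (-0.95 ± 0.10, adjusted p = 2e-05, edgeR), the only 1 of the 7 that passed, where 5.17% of all genes did. Limma voom called 2 of the 7. For Stat5b the difference was 0.50 (adjusted p = 0.031, edgeR), and for Il2rb it was -0.31 (adjusted p = 0.1). Without PBS replicate 4 of 1.5 h, the Stat5b difference was 0.37 and passed (adjusted p = 0.0041, edgeR). PBS levels of Stat5a were 698 to 762 CPM in vitro and 107 to 167 CPM in the PBS libraries of animals, and those of Stat5b 760 to 793 and 241 to 384 CPM. Jak3 was lower in vitro (84.9 to 93.6 against 170 to 345 CPM). These levels were scaled in separate tables, and table and culture cannot be told apart.

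In the high-dose table Il2ra had 608, 630 and 498 CPM in PBS and 604, 532 and 486 CPM after IL-2, and Il2rb had 830, 655 and 971 against 661, 1198 and 648 CPM. Both overlapped between the groups, and the log2 difference of Il2ra was -0.10 (95% interval -0.52 to 0.32). Stat5a had 128, 137 and 167 CPM in PBS and 99.6, 129 and 97.6 CPM after IL-2. Its log2 difference was -0.40 (adjusted p = 0.36, edgeR) and that of Stat5b 0.12 (adjusted p = 0.86), both within the spread between libraries. Summed myeloid markers were 61.9 to 69.3 CPM in PBS and 25.14 to 37.9 CPM after IL-2, whose part in these values was not tested.

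In the restimulation table Il2ra had 639, 569 and 593 CPM after PBS and PBS. After PBS and a single FP it had 566, 1785 and 1708 CPM, and after FP and FP again 1756, 1543, 1818 and 1532 CPM. Of the 7 FP libraries, 6 had 1532 CPM or more and the library labelled single FP, replicate 1, was at the PBS level. The log2 difference was 1.17 ± 0.34 (adjusted p = 0.22, edgeR) after the single and 1.47 ± 0.33 (adjusted p = 0.035) after the repeated FP. Without that library the single FP value was 1.54 with an adjusted p of 0.0029 (edgeR), so that 1 of the 7 genes passed, and 31 of all genes in place of 2.

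Il2rb had 757, 698 and 966 CPM after PBS and PBS, 1132, 1474 and 1389 CPM after the single FP and 1811, 2260, 1508 and 1927 CPM after the repeated FP. Here all FP libraries lay above PBS, and the repeated group lay above the single group. Il2rb rose by 1.22 ± 0.18 (2.32-fold, adjusted p = 0.008, edgeR) after the repeated FP, a call lost with 6 of 7 libraries left out in turn (adjusted p at most 0.047). After the single FP the log2 difference was 0.72 ± 0.19 (adjusted p = 0.17, edgeR), and 0.83 (adjusted p = 0.099) without the library labelled single FP, replicate 1.

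Repeated against single FP, Il2ra differed by 0.30 (adjusted p = 0.62, edgeR) and by -0.07 without the library labelled single FP, replicate 1. Il2rb differed by 0.49 (adjusted p = 0.17, edgeR) and by 0.39 without it. By edgeR and by DESeq2, 0 of 7 passed in that comparison, with 2 at an unadjusted p below 0.05, where 0.585% of all genes passed. Neither Stat5b nor Jak1 passed in this table. Stat5b had 295, 258 and 319 CPM after PBS and PBS, 318, 248 and 246 CPM after the single FP and 301, 368, 246 and 314 CPM after the repeated FP, and Jak1 had 737, 799 and 933, 1063, 880 and 886, and 1044, 872, 896 and 1004 CPM in the same order. Their groups overlapped. For Stat5b after the single FP, the overlap came only from the library labelled single FP, replicate 1 (318 CPM). The other single FP libraries (248 and 246 CPM) lay below all PBS libraries (258 to 319 CPM), the direction of the 1.5 h table. The lower levels of that table were not seen here for Jak1, or for Stat5b after the repeated FP. Il2rg had 222, 204 and 262 CPM after PBS and PBS, 240.1, 209 and 203 CPM after the single FP and 303, 349.9, 231 and 296 CPM after the repeated FP, with overlapping groups.

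The FP change of the single injection in this table was also set against that of the 1.5 h table. No gene of the 7 passed with edgeR or with limma voom, with 2 of 7 at an unadjusted p below 0.05. Of all genes, 0% passed with either tool, and 1824 had an unadjusted p below 0.05 with edgeR. The difference for Il2ra was -0.62 with a wide 95% interval, from -1.42 to 0.18 (adjusted p = 0.61, edgeR), and without the library labelled single FP, replicate 1, it was -0.26 (adjusted p = 0.59). For Stat5b it was 0.34 (95% interval -0.08 to 0.75), and 0.19 without that library. For Jak1 it was 0.45 (95% interval 0.10 to 0.79, adjusted p = 0.31, edgeR), and 0.34 without it. Summed myeloid markers were 21.6 to 53.9 CPM after repeated FP and 53.7 to 114 CPM in PBS, and their part in these values was not tested.

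**Figure D5:**
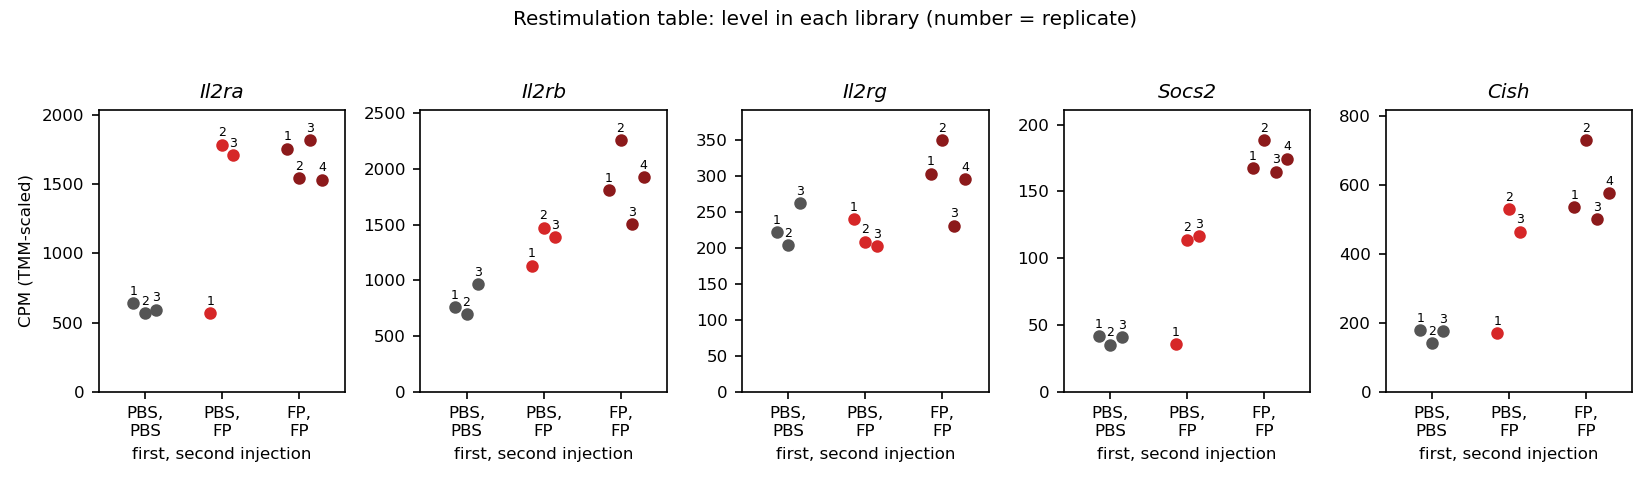
Level in CPM (vertical axis, from 0) of genes in each library of the restimulation table, with the replicate number beside each point. The single FP library of replicate 1 has 566 CPM of Il2ra, just below the PBS libraries (569 to 639 CPM), while its Il2rb level of 1132 CPM is above all PBS libraries.

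Further genes of the pathway were followed in 6 lists with 50 genes in all. Of the 50, 14 were higher and 5 lower at 1.5 h after IL-2 (8.39% and 5.79% of all genes), and 11 and 3 at 1.5 h after FP (4.39% and 2.28%). The counts were 14 and 8 at 16 h after FP (14.4% and 14.3% of all genes), 19 and 3 at 72 h after FP (17.3% and 13.1%), and 18 and 12 in vitro (7.4% and 6.54%). The 8 of 50 lower at 16 h are near the share of all genes. After IL-2 at 16 h and at 72 h, and in the high-dose table, 0 of the 50 passed with edgeR, as for the 7 genes above.

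Of 10 STAT5 target and feedback genes, 8 rose and 1 fell at 1.5 h after IL-2 (8.39% and 5.79% of all genes). After FP, 8 rose at 1.5 h, 9 at 16 h and 8 at 72 h, where 4.39%, 14.4% and 17.3% of all genes were higher. The median log2 change of the 10 was 1.41, 1.32, 0.92 and 1.23 in these, against medians of all genes between -0.05 and -0.01. Socs1 and Socs2, which block JAK activity and receptor signalling, rose by 2.03 and 2.21 at 1.5 h after IL-2, by 1.59 and 2.31 at 16 h after FP and by 1.42 and 2.55 at 72 h after FP. Cish, a further feedback inhibitor, rose by 1.90, 1.43 and 1.14 in the same order. At 16 h after IL-2 the values of Socs2 and Cish were -0.09 and -0.25, and neither passed, as for Il2ra. In vitro 8 of the 10 rose, with Socs1 at 2.82 and Cish at 1.72, and 2 fell. Of all genes, 7.4% were higher and 6.54% lower there. Fewer of the 10 passed in other comparisons. At 4 h, 1 rose after IL-2 and 4 after FP, where 0.652% and 0.913% of all genes passed. After repeated FP 2 rose, where 0.629% of all genes passed. After the single FP and at 168 h after FP, 0 of the 10 passed with edgeR (0.0111% and 1.21% of all genes).

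Among 5 partner receptors of the gamma chain, 1 rose and 1 fell in each of the 4 comparisons at 1.5 h after either agent and at 16 h and 72 h after FP. Of all genes, 14.2% passed at 1.5 h after IL-2, and 6.67%, 28.8% and 30.4% at these times after FP. With 5 genes, the counts at 16 h and 72 h are near the share of all genes. Il7r, the IL-7 receptor alpha chain, fell by 1.62 and 1.47 at 1.5 h after IL-2 and FP, by 2.02 at 16 h and by 1.14 at 72 h after FP, and by 0.50 in vitro. Il4ra, the IL-4 receptor alpha chain, rose by 0.72, 0.60, 0.28, 0.68 and 0.31 in the same order. In vitro Il21r, the IL-21 receptor, also fell, by 1.08.

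Of 7 other JAK and STAT genes, Stat2 alone passed at 1.5 h after IL-2, with a rise of 0.71, and 0 passed at 1.5 h after FP. At 16 h after FP 3 of the 7 fell, among them Jak2 by 0.51 and Stat4 by 0.53, the same direction as Jak1, Jak3 and Stat5b. At 72 h 2 rose, Stat2 by 0.78 and Stat3 by 0.36. Of all genes 14.2% passed at 1.5 h after IL-2, 28.8% at 16 h (14.3% lower) and 30.4% at 72 h after FP. The 1 of 7 at 1.5 h and the 2 of 7 at 72 h are near that share. In vitro 4 rose, among them Stat4 by 0.61, and 1 fell, where 13.9% of all genes passed.

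Of 8 phosphatases and other brakes, Cblb, a ubiquitin ligase, fell by 0.78 and Ptpn2, a phosphatase that acts on JAK1, JAK3 and STAT5, rose by 0.51 at 1.5 h after IL-2. At 16 h after FP Cblb fell by 0.60, Ptpn1, a phosphatase related to Ptpn2, rose by 0.65, and 1 further gene fell. At 72 h Ptpn1 rose by 0.53 and Ptpn2 by 0.47, and in vitro Ptpn1 rose by 0.21 and Sh2b3 by 0.23. Of all genes 14.2%, 28.8%, 30.4% and 13.9% passed in these comparisons, in the same order. The counts of this list at 16 h and 72 h are near that share. Of 11 genes of the adaptor, PI3K and MAPK branch, Pik3ip1, an inhibitor of PI3K, fell by 1.59 at 1.5 h after IL-2, by 1.48 at 16 h and by 0.90 at 72 h after FP. Akt1, a kinase downstream of PI3K, rose by 0.50, 0.52 and 0.91 in the same order.

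Of 9 transcription factors known to act on Il2ra, 2 rose and 1 fell at 1.5 h after IL-2, where 14.2% of all genes passed. Foxp3, which is also the gene behind the sort, rose by 0.84, and Nfatc1 fell by 0.52. At 16 h after FP 2 rose and 1 fell, with Nfatc2 at 0.41 and Ets1 at -0.32, and at 72 h 3 rose and 1 fell, with Cbfb at 0.84 and Nfatc2 at 0.77. Of all genes 28.8% and 30.4% passed in these, so that 3 and 4 of 9 are near the share of all genes. In vitro Foxp3 rose by 1.37, the 1 of the 9 that did, and 5 fell, among them Nfatc1 by 0.35. Of all genes, 7.4% were higher and 6.54% lower in vitro.

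Genes whose changes over the 13 comparisons were most like those of each of the 7 were taken from 8517 genes, by Pearson's r, as a description only, since comparisons of 1 table share PBS libraries. Closest to Il2ra were Ahr (r = 0.973), Osm (0.970), Ncbp3 (0.961), Mtmr3 (0.958) and Rcan3 (0.956). Osm was also on the list of STAT5 targets. Closest to Il2rb were Rnf126 (0.941) and Adrm1 (0.929), and to Il2rg Cdipt (0.976) and Capns1 (0.966). Closest to Jak1 were Tmub2 and Apobec3 (both 0.967), to Jak3 Dip2b (0.946) and Mcm3ap (0.941), to Stat5a Tmem120b (0.886) and Myh10 (0.816), and to Stat5b Wdr45 (0.979) and Acss1 (0.976). Among the 7 genes themselves, r over the same 13 values was 0.88 for Il2ra with Il2rb, 0.91 for Jak1 with Stat5b and -0.76 for Il2ra with Stat5b.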

How the data were processed

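The authors aligned reads to GRCm38 with STAR 2.5.0 and counted GENCODE M13 genes with featureCounts 1.5.0, per the submitters' processing notes, and the deposited values are raw counts. In the deposited tables no gene failed a minimum of 0.5 CPM in 3 or more columns. The 91 samples were 75 libraries: both runs of the 72 h and in vitro libraries were summed, and 2 libraries of 4 h with conflicting labels were left out. No column was left unmapped (0 columns).

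Each table was fitted with all its groups in edgeR 4.0.16 (R 4.3.3; TMM, filterByExpr with a minimum count of 10, quasi-likelihood F test, Benjamini-Hochberg over all genes tested, called below 0.01, the authors' threshold). Intervals are 95%. Differences between tables were tested in 6 joint fits. Levels per kilobase use union exon lengths from a later GENCODE release than the M13 that was counted. DESeq2 1.42.0, limma 3.58.1 and other settings were alternatives, and each library was left out in turn. The procedure was tested on data simulated from the levels of the 1.5 h table, with 4 libraries per group and the same spread for every gene. That spread was smaller than in the 4 h, high-dose and restimulation tables, so the simulation does not cover them.

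Replicate numbers were checked for pairing by the correlation of same-numbered libraries' deviations from their group means. Every pair exceeded 0.1 for IL-2 with PBS at 4 h (0.80, 0.38 and 0.80), FP with PBS at 4 h (0.56, 0.18 and 0.82) and IL-2 with PBS at 72 h (0.42, 0.29 and 0.36). Tokens in the 4 h column headers were read as dates, which the labels do not state. They match these numbers in part: replicates 4 share a date, as do PBS and IL-2 replicates 2, but FP replicate 2 has the date of PBS replicate 1 (r = 0.61). Values with either as a block (undated libraries as 1 level) stand beside the 4 h results. At 72 h after IL-2 0 of the 7 genes passed with the block too. Libraries with different numbers also shared deviations. Their r ran from -0.77 to 0.84 in the high-dose table and from -0.66 to 0.77 in the restimulation table. What such libraries share is not in the labels, and no block in the fits takes it up. The libraries of these tables may thus not vary independently.

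The 7 genes and the lists were chosen with earlier results of these data known. Named from each list were the 2 genes with the smallest p in a comparison, Socs2, Cish, Il7r and Il4ra, and the 5 genes most like Il2ra and 2 most like each other gene among those with at least 5 CPM in every table. The value of 1 gene that this rule names is not reported here.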

Additional observations from a re-analysis of the deposited data

Results flagged for a closer look

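Over 7 genes in 10 groups of 4 libraries, 70 sets of values were looked at. In 4 of them 1 library lay far from the rest of its group, and chance alone gives about 1 in 20. Il2ra had 1839 CPM in FP replicate 4 at 1.5 h, where the others had 2134 to 2144. Jak3 had 270.3 CPM in FP replicate 3 at 168 h, against 177 to 190 in the others. Stat5a (146 CPM, others 111 to 115) and Stat5b (384 CPM, others 273 to 283) both stood high in PBS replicate 4 at 1.5 h.

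The change differed between times or settings by a test of the difference itself (edgeR, adjusted p below 0.01) in 6 cases. For FP at 16 h against 1.5 h it differed by 0.89 for Il2rb. For FP at 168 h against 72 h it differed by -1.75 for Il2ra and by -0.99 for Il2rb. For IL-2 at 16 h against 1.5 h it differed by -1.99 for Il2ra and by -1.04 for Il2rb. For IL-2 in vitro against animals at 1.5 h it differed by -0.95 for Il2ra.

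The 4 h library titled FP whose injected molecule disagrees with its title was in no comparison. It had 2154 CPM of Il2ra, against 431 to 774 in the PBS libraries of its table, and 1438 CPM of Il2rb, against 565 to 1073.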

How the results depend on the processing

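Of 168 values (7 genes in 24 comparisons) under 2387 alternatives, 2187 kept direction and side of the threshold, 49 lost a call, 25 gained one and 126 changed sign, none of the last while called. Of 35 called values, 28 were called under every alternative. With a replicate block, 2 genes passed at 4 h after IL-2 and 2 after FP, 0 after repeated FP (Il2rb, adjusted p = 0.14, edgeR) and 4 in vitro (Il2rg lost). With the header date as a block, chosen after seeing the data, 2 passed at 4 h after IL-2 and 4 after FP. After FP at 4 h the count was 0 with the conflicting libraries grouped by injected molecule, with lane as a covariate and with the 2 groups alone. After IL-2 at 4 h it was 1 with those libraries grouped by title and 2 with DESeq2. Over all genes, grouping by title, which the column headers match, called 596 after FP and 379 after IL-2 at 4 h. Grouping by injected molecule called 0 after each. Of the 7 genes, DESeq2 called 2 after repeated FP, and voom 2 for in vitro against animals and 3 for IL-2 at 16 h against 1.5 h. Leaving out 1 library in turn, the count ranged from 0 to 0 after FP at 4 h, from 0 to 1 after single and after repeated FP and for FP at 72 h against 16 h, and from 1 to 2 for FP at 168 h against 72 h and for in vitro against animals. Il2ra after FP at 168 h ranged from -0.126 to 0.00372 (without FP replicate 3), and repeated against single FP from -0.0712 (without single FP replicate 1) to 0.55. The cause was not tested, except that fewer libraries entered each fit that left one out. Spread limits the 4 h, high-dose and restimulation tables: over all genes, 161 were called after FP at 4 h, 10 to 89 with a library left out, and 0 to 1684 (header date as a block) under the other alternatives. The corresponding counts were 115 after IL-2 at 4 h (1 to 90, and 0 to 1252), 113 after repeated FP (3 to 137, and 0 to 736), 2 after single FP (1 to 31, and 0 to 143), 105 for repeated against single FP (4 to 131, and 0 to 547) and 0 in the high-dose table (0 to 54, and 0 to 549). They were 1110 after FP at 1.5 h (689 to 1099, and 864 to 1700), 61 after IL-2 at 16 h (19 to 72, and 7 to 137), 210 after FP at 168 h (128 to 209, and 210 to 520), 5662 after FP at 72 h (3549 to 6620, and 4328 to 7721) and 5738 for FP against IL-2 at 72 h (3727 to 6704, and 4561 to 7912). For differences between tables, leaving out a library gave 572 to 1643 in place of 1071 for FP at 168 h against 72 h, 1175 to 2446 in place of 1953 for FP at 72 h against 16 h, and 513 to 1126 in place of 848 for in vitro against animals. In other comparisons the same-numbered pairs did not all exceed 0.1, although for FP at 72 h with PBS and with IL-2 all were positive. There the block raised the counts over all genes, from 5662 to 7721 against PBS and from 5738 to 7912 against IL-2. The block changed no other count of the 7 genes.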

Other observations

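The other 4 h library with conflicting labels, titled PBS, had 575 CPM of Il2ra and 571 CPM of Il2rb. Its Stat5a to Stat5b ratio per kilobase was 0.311, and that of the library titled FP was 0.496.

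The ratio of Il2rg to Il2rb per kilobase was 0.509 ± 0.065 in PBS at 1.5 h (SD, n = 4), 0.245 ± 0.028 after IL-2 and 0.272 ± 0.020 after FP, and 0.200 ± 0.019 after FP at 16 h. At 72 h after FP, when Il2rg had risen too, it was 0.384 ± 0.050 (SD, n = 4), against 0.638 ± 0.054 in PBS (SD, n = 3). At 168 h it was 0.677 ± 0.038 after FP (SD, n = 4) and 0.660 ± 0.083 in PBS (SD, n = 3).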
